A study of Homo sapiens with 12 samples.

Results

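The response to the long noncoding RNA CANT1 that was shared by MUM2B and OCM1, 2 lines grown from human uveal melanoma, was examined on Affymetrix PrimeView expression arrays. Uveal melanoma is a tumour of the pigment cells of the eye, and CANT1 is a transcript of the CASC15 locus. Of the study's 12 arrays, 8 were used: replicates 2 and 3 of 4 groups, which were MUM2B wild type, MUM2B CANT1, OCM1 wild type and OCM1 CANT1, each with 2 arrays. The CANT1 groups overexpressed CANT1, and the wild type groups were the unmodified lines. All 8 cultures were grown in DMEM with serum, and no other treatment is named. The labels describe no empty vector control, so an effect of CANT1 and one of the vector or of selection cannot be told apart. They do not say that replicates 2 and 3 are separate cultures, and p-values here therefore measure only the spread between these arrays, which may be technical.

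A gene was counted as shared when its CANT1 minus wild type difference passed in each line separately and had the same sign in both. Differences are in log2 units of scaled signal plus 32, an offset that understates the change of dim genes. The test was limma, with p-values adjusted by the Benjamini-Hochberg method over all 12384 genes tested and a threshold of 0.05. By this rule 625 of the 12384 genes were shared, 404 of them higher and 221 lower in CANT1 cells. The replicate 1 pairs, 4 further arrays whose label describes selection of the CANT1 cells in puromycin, were left out of the fit and are given as values beside it.

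Long noncoding RNAs can act on transcription near their own gene or at distant sites, and an overexpression experiment reads the direct and the secondary changes together. Several of the programmes described below are well known. Entry into S phase switches on a set of replication genes through the E2F factors, signalling through the MAPK cascade switches on immediate early genes and their feedback inhibitors within minutes, and interferon switches on antiviral and antigen presentation genes.

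In the mean of the lines, 2280 genes (18.4%) were higher and 1391 (11.2%) lower. In MUM2B alone 1781 genes (14.4%) were higher and 1282 (10.4%) lower, and in OCM1 alone 1739 (14%) were higher and 1195 (9.65%) lower. The genes higher in both lines made up 3.26% of those tested and the genes lower in both made up 1.78%. A further 310 genes (2.5%) passed in each line in opposite directions. Of the 935 genes that passed in each line, 66.8% had the same sign, where 54.3% of all genes tested had the same sign. The shared genes were 20.4% of the genes called in MUM2B and 21.3% of those called in OCM1. Of the 3671 genes called in the mean, 625 were also called in each line, 2579 in 1 line only, 439 in neither and 28 in opposite directions, and in 560 of them the effects of the 2 lines differed in sign.

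**Figure D1:**
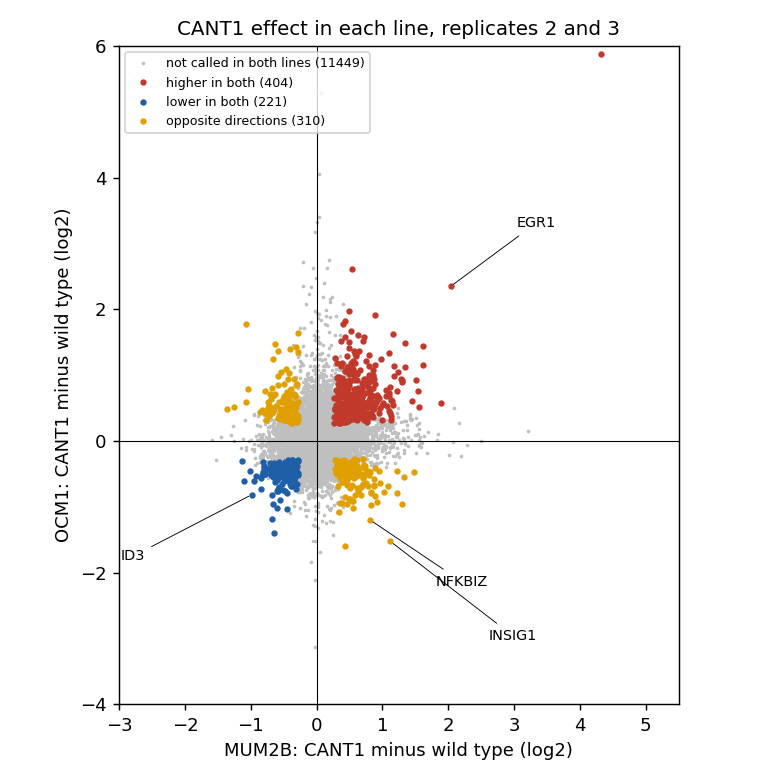
Each point is a gene, with the CANT1 minus wild type difference in MUM2B on the x axis and in OCM1 on the y axis (log2, replicates 2 and 3). The 404 red genes were higher and the 221 blue genes lower in both lines, the 310 yellow genes passed in opposite directions, and the point at the upper right is XIST.

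Shared changes were small. The median of the smaller of the 2 line effects was 0.45 over the 404 higher genes and 0.39 over the 221 lower genes. No detection call was used here, and a signal of 100, a log2 level of 7.04, served as the lower limit of measurement. In 103 of the 404 higher and 5 of the 221 lower genes both arrays of at least 1 group lay under that level. The change there has at most a lower bound, taken as the brighter group's mean minus 7.04 and written as at least. In 41 of the higher and 4 of the lower genes there is no bound above 0 in at least 1 line. With the 103 and the 5 genes at their bound (0 where there is none) the medians were 0.40 and 0.39. At least 2-fold changes in each line were found for 10 higher genes, 8 with the bounds, and for 0 lower genes by limma (0 also at an unadjusted p under 0.05 in each line), and the largest fall measured by its weaker line was 0.82, for ID3. The median standard error was 0.11 for a difference in 1 line and 0.08 for the mean. Across genes the effects in MUM2B and OCM1 correlated at r = 0.14 (n = 12384 genes, which are not independent replicates). For every shared gene, 404 of 404 and 221 of 221, the CANT1 and wild type arrays of a line did not overlap in either line. Over all genes tested, CANT1 lay above wild type without overlap in both lines in 14% and below it in 10.4%, so separation came with the call and adds nothing to it. In 64 of the 625 shared genes (10.2%) the size of the effect differed between the lines, against 22.1% of all genes tested. Shared genes were chosen for the same sign in this same fit, which favours a lower share, so the comparison adds nothing to the call.

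The count of shared genes depended on single arrays and on the scaling. With 1 array left out in turn, 166 to 423 genes were higher and 59 to 256 lower in both lines. The higher count fell to 166 without MUM2B wild type replicate 2, 174 without MUM2B CANT1 replicate 3, 208 without OCM1 CANT1 replicate 2, 240 without OCM1 wild type replicate 2 and 259 without OCM1 wild type replicate 3. The lower count fell to 59, 66, 70, 105 and 95 without those same arrays, and to 147 without OCM1 CANT1 replicate 3. Higher genes made up 64.6% of the shared genes as scaled here and 53.3% with the deposited values left as they are, and 62.1% and 52.9% of the genes called in the mean.

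Replicates 2 and 3 of a group correlated at r = 0.994 to 0.996 across genes. The ratio of 3′ to 5′ signal of ACTB, a measure of RNA integrity, was 0.47 to 0.58 (log2) on the 4 MUM2B arrays and higher on the OCM1 CANT1 arrays (0.91 and 0.84) than on the OCM1 wild type arrays (0.75 and 0.67), and its part in the OCM1 differences was not tested. Of 9 melanocyte markers measured, OCM1 had all 9 at a signal of 100 or more, with a summed signal of 77100 to 81419, whereas MUM2B had 3, with a summed signal of 581 to 680. The pigment cell identity that the label gives to MUM2B was therefore not seen in its markers. In OCM1 the sum does not show changes of single markers in either direction. TYRP1 gave 13590 and 14005 on OCM1 wild type and 2664 and 3789 on OCM1 CANT1 arrays. PMEL gave 23466 and 20960 on OCM1 wild type and 29762 and 31480 on OCM1 CANT1 arrays. The 5 endothelial markers summed to 2795 to 3323 on MUM2B wild type and 4666 to 5110 on MUM2B CANT1 arrays, and to 431 to 544 in OCM1. Most of the MUM2B sum was 1 gene, CDH5, with signals of 2385 and 2957 on wild type and 4155 and 4634 on CANT1 arrays. The 6 epithelial markers summed to 966 to 1025 on MUM2B wild type and 1243 to 1264 on MUM2B CANT1 arrays, and to 631 to 824 and 746 to 912 in OCM1. Fibroblast markers summed to 224 to 262 in MUM2B, with 0 of 6 at a signal of 100, and to 1482 to 1701 in OCM1, where LUM alone gave 1222 to 1437. Immune markers summed to 222 to 288 in both lines. The part of these markers in the differences described below was not tested.

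Overexpression of CANT1 itself could not be checked on these arrays. The 1 probe set of CASC15 lay between 5.49 and 5.64 (log2 level) on all 8 arrays, below the level of 7.04 that a signal of 100 gives, and whether its sequence is part of CANT1 is not given in the sources used here. At this background level CANT1 minus wild type was -0.06 in MUM2B and 0.10 in OCM1. Among genes around CASC15, 7 were tested. ID4, an inhibitor of basic helix-loop-helix factors, was the 1 shared gene among them. Over all genes 3.26% were higher and 1.78% lower in both lines. ID4 was higher by 0.32 (SE 0.10) in OCM1, while in MUM2B all 4 arrays lay under a signal of 100 and no size is given. It lost its call without any 1 of 6 of the 8 arrays, which were both MUM2B wild type arrays and all 4 OCM1 arrays. SOX4, a transcription factor next to CASC15, differed by 0.52 (adjusted p = 0.0058) in MUM2B and by 0.22 (adjusted p = 0.16) in OCM1.

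The largest shared increase was in XIST, the RNA that coats the inactive X chromosome. Its wild type arrays lay under a signal of 100 in both lines, and it was higher by at least 3.89 in MUM2B (limma adjusted p = 1.1e-06) and by at least 5.24 in OCM1 (adjusted p = 9.9e-09), with all 5 of its bright probe sets the same way. On the replicate 1 pairs, which are outside this fit, it ran the other way, by -2.89 in MUM2B and -8.68 in OCM1. Of 398 X-linked genes tested, 16 were higher (4.02%) and 9 lower (2.26%) in both lines, close to the shares over all genes. The median effect over the X-linked genes was 0.03 in MUM2B and 0.07 in OCM1.

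EGR1, an immediate early transcription factor induced by growth factor signalling, measured 6.61 and 6.92 on the MUM2B wild type arrays and 8.97 and 8.63 on the MUM2B CANT1 arrays. In OCM1 it measured 6.83 and 6.95 on wild type and 9.20 and 9.27 on CANT1 arrays (log2 level). All 4 CANT1 arrays lay above all 4 wild type arrays, which were under the level of 7.04. The increase was therefore at least 1.76 (limma adjusted p = 2.1e-05) in MUM2B and at least 2.19 (adjusted p = 1.1e-06) in OCM1. Its 4 bright probe sets pointed the same way, with differences of 0.03 to 2.05 in MUM2B and 0.28 to 2.35 in OCM1.

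SPRY4, a feedback inhibitor of receptor tyrosine kinase signalling, went from 9.32 and 9.56 to 10.45 and 10.77 in MUM2B and from 10.46 and 10.51 to 11.63 and 11.32 in OCM1. Its relative SPRY2 went from 9.62 and 9.90 to 10.62 and 10.75 and from 11.11 and 11.06 to 11.79 and 11.71. The effects were 1.17 and 0.99 for SPRY4 and 0.93 and 0.67 for SPRY2. IER3, an immediate early gene that modulates survival signalling, rose by 0.85 (adjusted p = 0.0024) in MUM2B and 1.08 (adjusted p = 0.00042) in OCM1. EGR1, SPRY4, SPRY2 and IER3 each kept the call in both lines with any 1 array left out.

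These 4 genes belong to a list of 40 MAPK outputs and early response genes. By limma 8 of the 40 were higher and 0 lower in both lines, against 3.26% and 1.78% of all genes. In the mean 24 were higher and 3 lower, against 18.4% and 11.2%. The median effect was 0.32 in MUM2B and 0.19 in OCM1, where the median over all genes tested was 0.01 and 0.04. KLF2 and KLF6, zinc finger factors that also respond early, went in opposite directions. KLF2 rose by 0.95 in MUM2B and fell by 0.46 in OCM1. KLF6 rose by 0.38 and fell by 0.94. The count of 8 fell to 4 without MUM2B wild type replicate 2 or MUM2B CANT1 replicate 3 and to 5 without OCM1 CANT1 replicate 2.

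The start of EGR1 is shown because serum response elements are its known early-response control. CArG boxes (CC, then 6 bases of A or T, then GG) are the core of that element, and the window of 250 bases before to 50 after the RefSeq start held 2, the first 105 and the second 83 bases before the start. A CArG box was found in 1.07% of the 10145 promoters of genes tested and in 1.28% of all 27305 promoters of the table, both strands searched. Among the genes higher in both lines 3 of 340 promoters held one (0.882%). Capitals mark the boxes (GRCh38, plus strand, chr5:138465344-138465435).
EGR1: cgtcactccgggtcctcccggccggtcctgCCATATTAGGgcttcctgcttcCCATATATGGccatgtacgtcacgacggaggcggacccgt
A match describes the letters of this window and says nothing about binding in these cells.

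HLA-B, a class I molecule that presents peptides to T cells, measured 10.58 and 10.92 on MUM2B wild type and 11.82 and 12.37 on MUM2B CANT1 arrays, and 11.12 and 11.06 on OCM1 wild type and 12.58 and 12.58 on OCM1 CANT1 arrays. HLA-C, another class I molecule, measured 10.49 and 10.71 against 11.35 and 11.63 in MUM2B and 12.32 and 12.39 against 13.30 and 13.14 in OCM1. As in every shared gene, the groups did not overlap. The increases were 1.35 (SE 0.16) and 1.49 (SE 0.16) for HLA-B and 0.89 (SE 0.12) and 0.87 (SE 0.12) for HLA-C, with adjusted p-values of 0.00057, 0.00012, 0.00092 and 0.00059 (limma). Class I genes are near-identical over parts of their sequence, so their probe sets may share signal. Of 25 tested genes of the HLA and antigen presentation list, these 2 were higher and 0 lower in both lines (limma). The shares over all genes were 3.26% and 1.78%. In the mean 11 were higher and 1 lower, against 18.4% and 11.2% of all genes. Without MUM2B CANT1 replicate 2, 4 were higher in both lines.

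IFITM1, an interferon-induced membrane protein that restricts virus entry, went from 7.21 and 7.65 to 8.44 and 8.79 in MUM2B and from 8.45 and 8.39 to 9.57 and 9.53 in OCM1. The effects were 1.18 (SE 0.15) and 1.14 (SE 0.15), and their difference did not pass (adjusted p = 0.91). GBP2, an interferon-induced GTPase, rose by at least 0.49 in MUM2B, where wild type lay under a signal of 100, and by 0.93 in OCM1. IRF9, the DNA-binding subunit of the interferon-activated complex ISGF3, rose by 1.16 and 0.55, and RIGI, a sensor of viral RNA, by 0.78 and 0.41. Of 34 interferon-stimulated genes tested, 5 were higher and 0 lower in both lines by limma, against 3.26% and 1.78% of all genes. In the mean 20 were higher and 0 lower, against 18.4% and 11.2%. The median effect was 0.31 in MUM2B and 0.27 in OCM1. IFITM1 kept its call with any 1 array left out, whereas GBP2 lost it without OCM1 wild type replicate 3 or OCM1 CANT1 replicate 2, and the count of 5 fell to 1 without either of those arrays and to 2 without OCM1 wild type replicate 2 or OCM1 CANT1 replicate 3.

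The start of IFITM1 is shown because interferon-stimulated response elements are its textbook control. The core searched on both strands, GAAA, then any 2 bases, then GAAA, was found at 2 places in its window, the first 40 and the second 6 bases before the start. It occurred in 2.64% of the promoters of genes tested, in 5% of those of the genes higher in both lines (17 of 340) and in 3.65% of all promoters of the table. Capitals mark the matches (GRCh38, plus strand, chr11:313970-314059).
IFITM1: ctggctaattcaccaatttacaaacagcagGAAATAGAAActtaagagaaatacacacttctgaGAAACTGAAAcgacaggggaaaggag

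CD40, a receptor of the tumour necrosis factor family, went from 9.02 and 9.30 to 10.30 and 10.50 in MUM2B and from 8.96 and 9.06 to 10.04 and 10.07 in OCM1, increases of 1.24 (SE 0.12) and 1.04 (SE 0.12). ICAM1, an adhesion molecule for leukocytes, rose by 0.75 and 0.73 (SE 0.13 each). For both genes the groups did not overlap, which holds for every shared gene. In the list of 28 NF-κB components and targets tested, ICAM1 was the 1 gene higher in both lines, a share near the 3.26% of all genes. The median effect of the list was 0.65 in MUM2B and 0.02 in OCM1, and 16 of the 28 genes differed between the lines, where 22.1% of all genes did. NFKBIZ, an inducible regulator of NF-κB target genes, rose by 0.81 in MUM2B and fell by 1.20 in OCM1 (adjusted p of the difference = 3.7e-05).

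ITGB3, the β3 integrin subunit, went from 7.42 and 8.21 to 9.03 and 9.30 in MUM2B and from 11.25 and 11.23 to 12.38 and 12.34 in OCM1. The increases were 1.35 (SE 0.20, adjusted p = 0.0012) and 1.12 (SE 0.20, adjusted p = 0.0023), and 6 of 6 bright probe sets pointed the same way in each line. The wild type arrays of MUM2B lay farther apart than the pairs of the other groups. ITGA10, a collagen-binding integrin subunit, rose by at least 0.72 in MUM2B, where wild type lay under a signal of 100, and by 0.68 in OCM1. Its other bright probe set differed by only 0.01 in MUM2B and 0.13 in OCM1. Of 27 integrin and adhesion genes tested, ITGB3, ICAM1 and ITGA10 were higher and 0 were lower in both lines (limma). The shares over all genes were 3.26% and 1.78%. Each of the 3 genes kept its call with any 1 array left out.

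Among 46 collagens and matrix genes tested, 6 were higher and 0 lower in both lines by limma, against 3.26% and 1.78% of all genes. FN1, fibronectin, rose by 1.22 in MUM2B (11.49 and 12.13 to 13.07 and 12.99) and by 0.75 in OCM1 (10.28 and 9.92 to 10.78 and 10.93). The laminin chain LAMA4 rose by 0.57 and 1.05, LAMA5 by 0.64 and 0.53, and COL7A1, the collagen of anchoring fibrils, by 0.43 and 0.84. COL6A1 rose by 0.81 in MUM2B and fell by 0.47 in OCM1. The count of 6 fell to 3 without MUM2B wild type replicate 2, MUM2B CANT1 replicate 3 or OCM1 wild type replicate 3. The median effect of the list was 0.14 in MUM2B and 0.12 in OCM1.

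The list of matrix protease families and their inhibitors held 30 tested genes. By limma 4 were higher and 0 lower in both lines, against 3.26% and 1.78% of all genes. TIMP1, an inhibitor of metalloproteinases, rose by 0.61 and 0.37, though 1 of its 3 bright probe sets differed by -0.22 in MUM2B. RECK, a membrane-anchored inhibitor, rose by 0.32 and 0.97. ADAM23 and ADAMTS9, members of the ADAM and ADAMTS families, rose by 0.50 and 0.69 and by 0.29 and 0.47. MMP14, a membrane-bound metalloproteinase, rose by 0.71 in MUM2B and fell by 0.56 in OCM1. Without MUM2B CANT1 replicate 2, OCM1 CANT1 replicate 2 or OCM1 CANT1 replicate 3, 1 was called, and without MUM2B CANT1 replicate 3 or OCM1 wild type replicate 2, 2 were.

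VEGFC, a growth factor for lymphatic vessels, measured 8.80 and 8.87 on MUM2B wild type and 9.75 and 10.13 on MUM2B CANT1 arrays, and 6.07 and 6.40 on OCM1 wild type and 7.63 and 7.50 on OCM1 CANT1 arrays. The increase was 1.10 (SE 0.14) in MUM2B and at least 0.52 in OCM1, where both wild type arrays lay under a signal of 100. PGF, placental growth factor, rose by 1.06 and 0.53, and ADM, the vasodilator adrenomedullin, by 0.64 and 0.70. Of 27 angiogenic and vasculogenic factors tested, these 3 were higher and 0 lower in both lines (limma), against 3.26% and 1.78% of all genes. In the mean 13 were higher and 3 lower, against 18.4% and 11.2%. VEGFB passed in opposite directions, by 0.30 in MUM2B and -0.30 in OCM1, a call that was lost without any 1 of the 8 arrays. The endothelial marker sums given above were also higher in MUM2B CANT1 cells, and their part in these values was not tested. Without OCM1 CANT1 replicate 3, 1 of the list was called in both lines.

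The TGF-β and BMP list held the strongest shared fall, as measured by the weaker line, beside shared increases. ID3, a target of BMP signalling and an inhibitor of differentiation factors, measured 11.36 and 11.26 on MUM2B wild type and 10.45 and 10.20 on MUM2B CANT1 arrays, and 10.90 and 10.94 on OCM1 wild type and 10.06 and 10.15 on OCM1 CANT1 arrays. It fell by 0.98 (SE 0.11, adjusted p = 0.00029) in MUM2B and by 0.82 (SE 0.11, adjusted p = 0.00035) in OCM1, with 3 of 3 bright probe sets alike. BMP6, a ligand of the BMP pathway, was higher on the CANT1 arrays. Its 4 wild type arrays lay under a signal of 100, so the increase was at least 0.85 in OCM1 and has no bound above 0 in MUM2B. SMAD3, the transducer of TGF-β signals, rose by 0.56 and 1.09, and LTBP3, a protein that binds latent TGF-β, by 0.50 and 0.85.

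Of 38 TGF-β and BMP genes tested, 4 were higher and 1, ID3, was lower in both lines. LTBP1 went in opposite directions (0.83 in MUM2B and -0.77 in OCM1). Shares over all genes, for this list and the mesenchymal one below, were 3.26% higher and 1.78% lower. ID3 and BMP6 kept their calls with any 1 array left out, and the 4 became 1 without MUM2B wild type replicate 2 and 2 without MUM2B CANT1 replicate 3, OCM1 wild type replicate 2 or OCM1 wild type replicate 3. Of 20 EMT factors and mesenchymal genes, 4 were higher and 0 lower in both lines by limma, yet the list's median effect was 0.00 in MUM2B and 0.06 in OCM1. TPM2, a tropomyosin, rose by 0.86 and 0.80. ZEB1, a repressor of epithelial genes, rose by 0.40 and 0.86, sizes that differed between the lines. ACTA2, smooth muscle actin, rose by 0.50 in MUM2B and by at least 1.02 in OCM1, where wild type lay under a signal of 100. The fourth was FN1, and TPM1 fell by 0.32 in MUM2B, where 4 of its 7 bright probe sets pointed that way, and rose by 0.51 in OCM1. Without MUM2B wild type replicate 2, MUM2B CANT1 replicate 3 or OCM1 CANT1 replicate 3, 2 of the mesenchymal genes were still called.

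LEMD1, a gene of the cancer-testis class, went from 6.99 and 7.93 to 8.69 and 9.46 in MUM2B and from 6.88 and 7.05 to 8.37 and 8.43 in OCM1. KCNMB4, a regulatory subunit of a calcium-activated potassium channel, went from 7.30 and 7.36 to 8.20 and 8.78 and from 7.86 and 8.10 to 9.72 and 9.49. AMOT, a scaffold that binds YAP, went from 6.11 and 6.29 to 7.82 and 7.80 and from 9.28 and 9.47 to 10.50 and 10.56. As in every shared gene, the groups did not overlap. The effects were 1.62 and 1.44 for LEMD1 and 1.16 and 1.62 for KCNMB4, and for AMOT at least 0.77 in MUM2B, where wild type lay under a signal of 100, and 1.16 in OCM1.

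SATB1, a chromatin organiser, completed the 12 largest shared increases as measured. It measured 8.24 and 8.38 against 9.04 and 9.54 in MUM2B and 5.59 and 5.61 against 6.66 and 7.02 in OCM1. The effect was 0.98 in MUM2B, and in OCM1 all 4 arrays lay under 7.04, so no size is given there. It also belongs to the 15 tested genes that separate the expression classes of uveal melanoma. By limma 3 of the 15 were higher and 0 lower in both lines, against 3.26% and 1.78% of all genes. The other members were ROBO1, an axon guidance receptor, higher by 0.46 and 0.58, and EIF1B, a translation factor, higher by 0.39 and 0.45. Each of the 12 genes with the largest shared increases kept its call in both lines with any 1 array left out.

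Of 33 Wnt pathway genes tested, 3 were higher and 0 lower in both lines by limma. Shares over all genes, for this list and the FOXO and p53 lists below, were 3.26% higher and 1.78% lower. The Wnt receptor FZD7 rose by 0.76 and 1.21, the corepressor TLE1 by 0.65 and 0.56, and the R-spondin receptor LGR4 by 0.35 and 0.37, a count that became 1 without MUM2B CANT1 replicate 3, OCM1 wild type replicate 2 or OCM1 CANT1 replicate 2. Of 25 FOXO targets, 4 were higher and 0 lower in both lines by limma: TSC22D3, a glucocorticoid-induced leucine zipper protein (1.05 and 0.77), the repressor BCL6 (1.15 and 0.60), FOXO1 itself (0.65 and 0.55) and the mitochondrial quality control kinase PINK1 (0.88 and 0.48). The FOXO count fell to 0 without OCM1 wild type replicate 2 or OCM1 CANT1 replicate 2 and to 2 without OCM1 wild type replicate 3 or OCM1 CANT1 replicate 3 (limma). Of 25 p53 targets, TP53INP1 (1.54 and 0.76, with its other bright probe set at -0.02 and 0.06) and the cell cycle inhibitor CDKN1A (0.39 and 0.49) were higher, and TP53I3 was lower, falling by 0.51 and 0.46. Those p53 target calls were lost together without OCM1 wild type replicate 3 or OCM1 CANT1 replicate 2. Singly, TP53INP1 lost its call without any 1 of the 4 OCM1 arrays, CDKN1A without any 1 of 5 arrays and TP53I3 without any 1 of 6.

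Of 55 genes of DNA replication and the G1 to S transition tested, 18 were lower and 0 higher in both lines by limma. Over all genes 1.78% were lower in both lines. In the mean 48 were lower and 0 higher, against 11.2% and 18.4% of all genes. The median effect was -0.55 in MUM2B and -0.38 in OCM1. In MUM2B 40 of the 55 were lower and in OCM1 25 were, so that most did not pass in both. With 1 array left out, 7 to 27 were lower in both lines and 36 to 52 in the mean. The count of 18 was 7 without MUM2B wild type replicate 2, OCM1 wild type replicate 3 or OCM1 CANT1 replicate 2, 9 without MUM2B CANT1 replicate 3 or OCM1 wild type replicate 2, and 10 without MUM2B wild type replicate 3.

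UNG, the uracil glycosylase that clears uracil from DNA, measured 10.75 and 10.63 on MUM2B wild type and 10.09 and 9.60 on MUM2B CANT1 arrays, and 10.36 and 10.48 on OCM1 wild type and 9.63 and 9.76 on OCM1 CANT1 arrays. CDC45, part of the replicative helicase, went from 9.67 and 9.61 to 9.33 and 8.83 in MUM2B and from 9.63 and 9.59 to 8.59 and 8.83 in OCM1. MCM5, a subunit of the same helicase, went from 9.79 and 9.96 to 9.40 and 9.19 and from 8.66 and 8.68 to 7.78 and 8.05. All 3 were below wild type on every CANT1 array, as was every shared lower gene. The falls were 0.85 and 0.72 for UNG, 0.56 and 0.89 for CDC45, and 0.58 and 0.76 for MCM5.

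E2F2, an activating factor of the E2F family, fell by 0.60 (SE 0.12, adjusted p = 0.0044) in MUM2B, from 8.22 and 8.13 to 7.74 and 7.39, and by 0.57 (SE 0.12, adjusted p = 0.005) in OCM1, from 8.49 and 8.51 to 7.89 and 7.96. UNG and E2F2 kept their calls with any 1 array left out, MCM5 lost its call without MUM2B CANT1 replicate 3, and CDC45 without that array or MUM2B wild type replicate 2. The cyclin CCNE2 and the protease FAM111B, chosen after their values were seen, had the largest falls of the list in MUM2B but did not pass in OCM1, as the plot of replication genes shows.

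**Figure D2:**
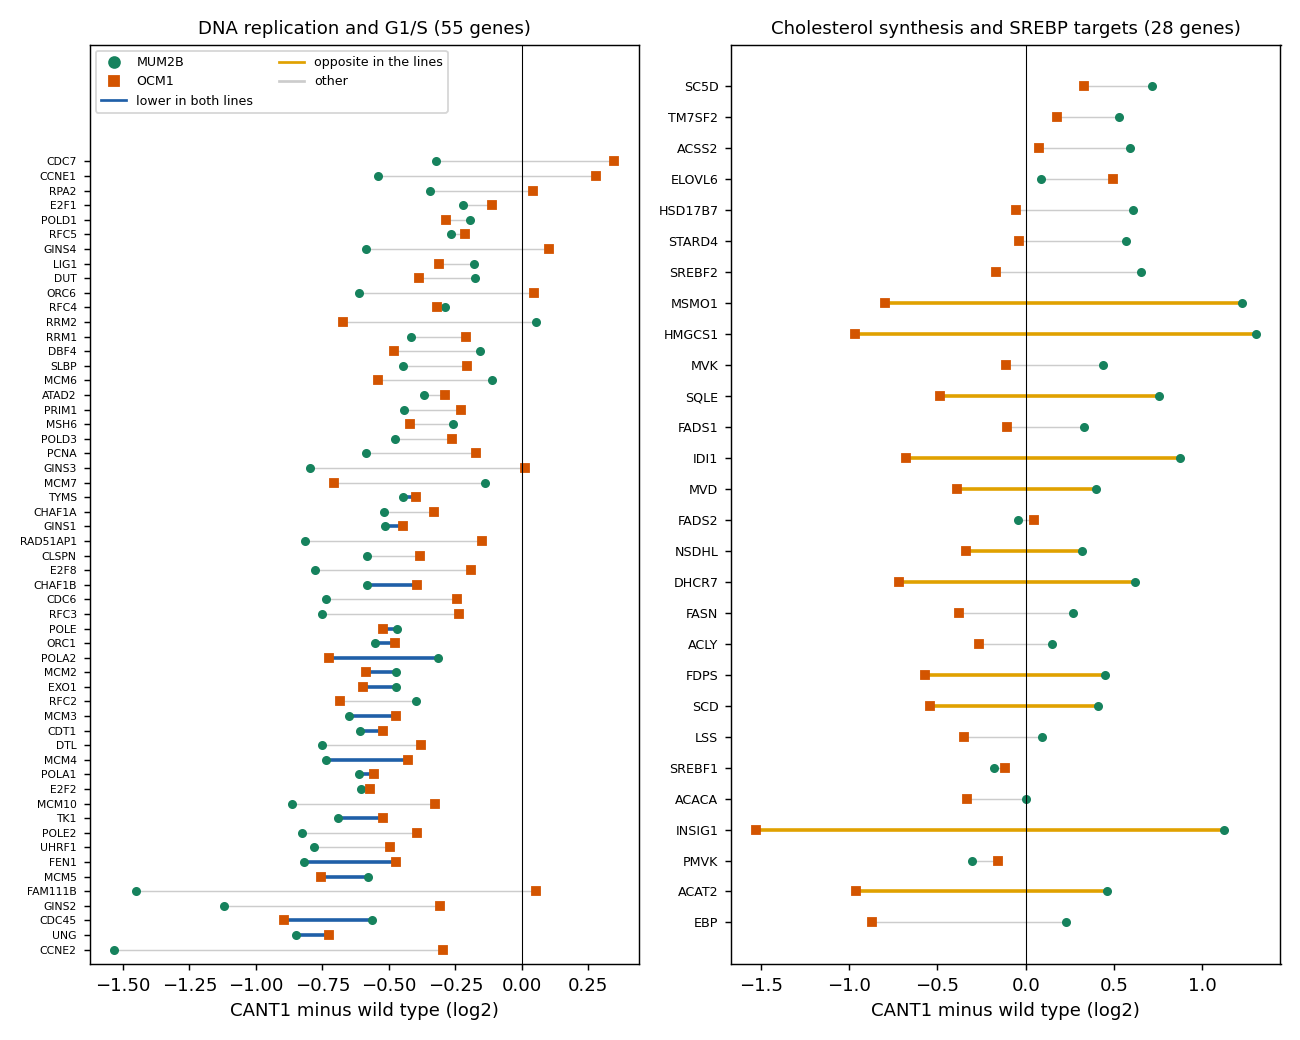
Each row is a gene, ordered by its mean effect, with a circle for MUM2B and a square for OCM1 (CANT1 minus wild type, log2). In the replication list 54 of 55 genes had a mean below 0 and 18 were lower in both lines (blue), whereas 11 of 28 sterol genes passed in opposite directions (yellow).

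Promoters of these genes are shown because E2F sites are the known common control of the G1 to S set. RefSeq promoters (GRCh38, 250 bases before to 50 after the start) were searched on both strands for 2 spellings of the E2F site, TTTGGCGC and TTTCGCGC. A promoter was at hand for 16 of the 18 shared replication genes, all but MCM4 and MCM5, and 8 of the 16 (50%) held a match. Over the whole tested list 14 of 46 did (30.4%), over all tested genes 202 of 10145 (1.99%), and 322 of 27305 promoters in all (1.18%). Among all genes lower in both lines 13 of 189 held a match (6.88%), and among those higher in both lines 3 of 340 (0.882%). The 189 include the 16 shared replication genes and the 13 include their 8 matches, so the 6.88% is not a separate result. The 8 stretches below run from 30 bases before the match to at most 30 after it, cut 20 bases after the start, on the gene's strand. Capitals mark the match, and in MCM2 matches on both strands overlap.
MCM2, chr3:127598383-127598430, plus strand: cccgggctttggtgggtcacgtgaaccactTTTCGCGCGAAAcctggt
MCM3, chr6:52284723-52284776, minus strand: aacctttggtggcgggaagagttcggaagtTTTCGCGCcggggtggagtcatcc
GINS1, chr20:25407648-25407692, plus strand: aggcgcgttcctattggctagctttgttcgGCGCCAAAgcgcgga
POLA1, chrX:24693751-24693818, plus strand: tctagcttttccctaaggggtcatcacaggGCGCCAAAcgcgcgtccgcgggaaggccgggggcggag
POLA2, chr11:65261879-65261946, plus strand: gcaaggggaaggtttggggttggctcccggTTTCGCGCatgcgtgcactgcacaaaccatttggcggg
POLE, chr12:132687323-132687390, minus strand: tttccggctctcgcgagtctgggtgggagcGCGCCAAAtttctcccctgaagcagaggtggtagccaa
EXO1, chr1:241848178-241848223, plus strand: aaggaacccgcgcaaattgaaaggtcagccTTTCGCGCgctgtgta
E2F2, chr1:23531238-23531305, minus strand: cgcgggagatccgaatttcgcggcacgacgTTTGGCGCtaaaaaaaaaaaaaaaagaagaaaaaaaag
In MCM2, GINS1 and EXO1 the match begins after the start, by 2, 5 and 4 bases, and in MCM3 it begins 4 bases before the start and runs across it. In the other 4 it lies before the start, farthest in POLA1, where it begins 137 bases before it. UNG and CDC45, whose mean falls were larger than those of these 8 genes, held neither spelling in this window.

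Of 45 mitotic genes tested, 3 were lower and 0 higher in both lines by limma, against 1.78% and 3.26% of all genes. In the mean 27 were lower and 0 higher, against 11.2% and 18.4%. The median effect was -0.09 in MUM2B and -0.39 in OCM1. The effect differed between the lines in 14 of the 45, where it did in 22.1% of all genes. FOXM1, a factor that drives mitotic transcription, fell by 0.51 and 0.44, the kinetochore protein NDC80 by 0.38 and 0.46, and cyclin CCNA2 by 0.37 and 0.37. BUB1, a checkpoint kinase, rose by 0.41 in MUM2B and fell by 0.29 in OCM1, a call that was lost without any 1 of 7 of the 8 arrays. The 3 became 1 without MUM2B wild type replicate 2 or 3, MUM2B CANT1 replicate 3, OCM1 wild type replicate 2 or OCM1 CANT1 replicate 2.

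Ribosome biogenesis genes were lower in both lines in 7 of 30 tested, with 0 higher by limma, and lower in the mean in 24. Of all genes 1.78% were lower in both lines and 11.2% in the mean. BOP1, needed for processing of the large subunit RNA, measured 12.02 and 11.71 against 11.38 and 11.22 in MUM2B and 11.37 and 11.46 against 10.73 and 10.68 in OCM1, falls of 0.57 and 0.71. MRTO4, NOP16 and UTP20, other ribosome assembly factors, fell by 0.69 and 0.50, 0.64 and 0.42, and 0.67 and 0.50. POLR1B, a subunit of RNA polymerase I, fell by 0.42 in MUM2B and rose by 0.63 in OCM1. The 7 became 1 without OCM1 wild type replicate 3, 2 without OCM1 CANT1 replicate 2, 3 without MUM2B wild type replicate 2 and 4 without OCM1 wild type replicate 2. The ribosomal proteins themselves differed little: of 65, 0 passed in both lines in the same direction (limma), and 0 were higher and 2 lower in the mean.

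The mitochondrial ribosome had 25 of 43 genes lower in the mean and 3 in both lines, against 11.2% and 1.78% of all genes. The 3 were MRPL12, by falls of 0.39 and 0.39, MRPL27 by 0.29 and 0.30 and MRPL47 by 0.37 and 0.28. MRPS14 fell by 0.30 in MUM2B and rose by 0.31 in OCM1, a call that was lost without any 1 of the 8 arrays. Of the 3 shared calls, 0 remained without MUM2B wild type replicate 2 or 3, MUM2B CANT1 replicate 3, OCM1 wild type replicate 3 or OCM1 CANT1 replicate 2 (limma). The 25 in the mean became 9 without MUM2B wild type replicate 2. Of 36 splicing factors 13 were lower in the mean and 2 in both lines, against 11.2% and 1.78% of all genes. The 2 were SRSF1, by 0.56 and 0.36, and SF3B3, by 0.36 and 0.37. Neither call stood without MUM2B wild type replicate 2, MUM2B CANT1 replicate 3, OCM1 wild type replicate 3 or OCM1 CANT1 replicate 3. The 13 became 7 without MUM2B wild type replicate 2, MUM2B CANT1 replicate 3 or OCM1 CANT1 replicate 2. Of 35 respiratory chain genes, 0 passed in both lines (limma) and 2 were lower in the mean.

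Other large shared falls were in genes of several roles. OXCT1, the enzyme that activates ketone bodies, measured 10.19 and 10.19 against 9.71 and 9.31 in MUM2B and 11.26 and 11.20 against 9.87 and 10.22 in OCM1, falls of 0.68 and 1.18. DDX39A, an RNA helicase of mRNA export, went from 11.94 and 11.79 to 11.25 and 11.13 and from 11.01 and 11.11 to 10.09 and 10.38. DHX9, another RNA helicase, went from 11.17 and 11.08 to 10.66 and 10.40 and from 10.39 and 10.40 to 9.58 and 9.69. As in every shared gene, the groups did not overlap. DDX39A (0.68 and 0.83) and DHX9 (0.59 and 0.76) kept their calls with any 1 array left out.

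ZNF367, a zinc finger factor expressed at the G1 to S transition, fell by 0.66 and 0.97, SHCBP1, a protein of dividing cells, by 0.59 and 0.74, MNS1, a flagellar and meiotic structural protein, by 0.63 and 0.63, and the chaperone partner CHORDC1 by 0.60 and 1.01. PDSS1, which makes the side chain of coenzyme Q, fell by 1.10 and 0.61, although its other bright probe set differed by 0.44 in MUM2B and -0.46 in OCM1. PIGW, an enzyme of GPI anchor synthesis, fell by 0.95 and 0.61, and the small nucleolar RNA SNORD17 by 0.64 and 1.39, a difference between the lines (adjusted p = 0.026). Of these 7, none kept its call with every single array left out in turn. MNS1 and OXCT1 lost it without MUM2B CANT1 replicate 3 alone, SNORD17 and CHORDC1 without that array or MUM2B wild type replicate 2, and ZNF367 without 6 of the 8 arrays.

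**Figure D3:**
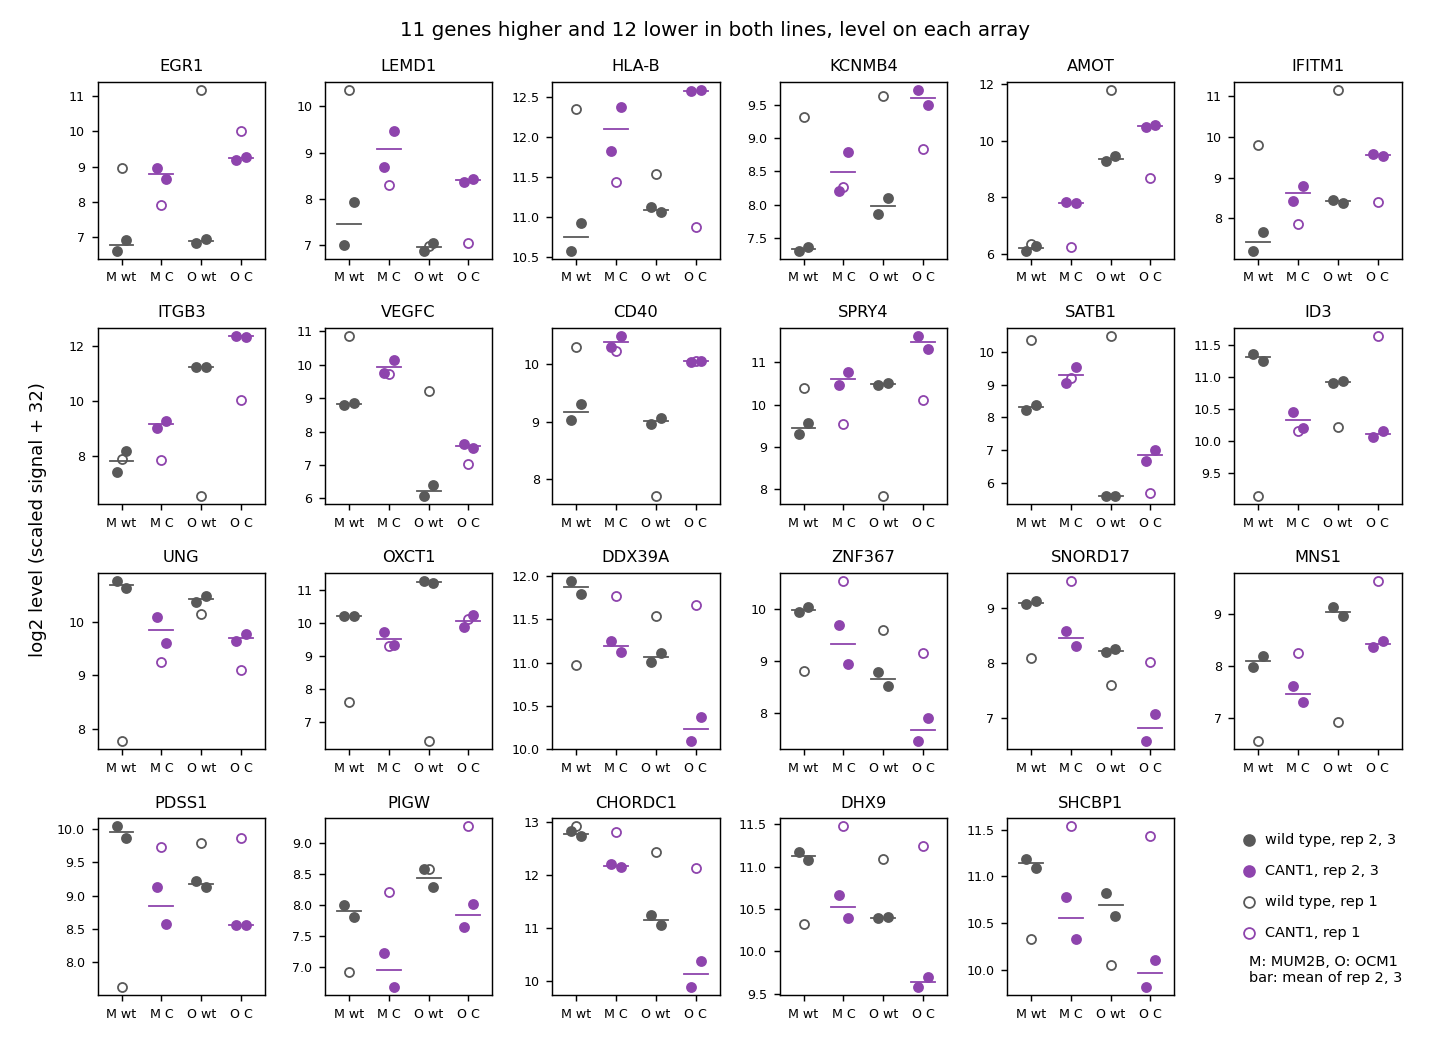
Each panel is a gene, with its log2 level on every array (M, MUM2B; O, OCM1; wt, wild type; C, CANT1). Filled points are replicates 2 and 3, bars their mean and open points replicate 1; filled CANT1 points lie above wild type in the first 11 panels and below in the other 12, while open points often lie the other way.

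The counts of 0 above can be read against an unadjusted p under 0.05 in each line, by which 727 of all genes were higher and 462 lower in both lines. By that measure 0 replication, mitotic, ribosome biogenesis, mitochondrial ribosome and splicing genes were higher in both lines. In the lists with shared increases, 2 MAPK genes, 1 matrix gene and 0 interferon, HLA, NF-κB, integrin, protease, mesenchymal, Wnt, angiogenic, FOXO and uveal melanoma class genes were lower in both lines. Of the ribosomal proteins 0 were higher or lower in both lines, of the respiratory chain 1 was lower, and of the sterol genes 1 was higher.

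Among all 88 genes named here as shared, 28 kept their call in both lines with any 1 array left out. The call was lost by 35 without MUM2B wild type replicate 2, 16 without replicate 3, 12 without MUM2B CANT1 replicate 2 and 37 without its replicate 3. In OCM1 it was lost by 31 without wild type replicate 2, 33 without replicate 3, 36 without CANT1 replicate 2 and 24 without its replicate 3. Of the 57 with more than 1 bright probe set, 52 had all of them pointing the same way in each line, and the other 5 were PDSS1, TP53INP1, TIMP1, CHORDC1 and TRIOBP. This counts the sign alone, also where a probe set differed by little. Examples are ITGA10 and TMEM163, with 0.01 and 0.02 in MUM2B, and NAV3 and FN1, with 0.10 and 0.06 in OCM1.

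Among the 15 named genes that passed in opposite directions, NFKBIZ, LTBP1, INSIG1 and BCL2A1 were the 4 that kept the call with any 1 array left out. MMP14 and HMGCS1 lost it without OCM1 wild type replicate 3, KLF2 and COL6A1 without that array or OCM1 CANT1 replicate 3, and TFAP2A without any of those or OCM1 CANT1 replicate 2. POLR1B and KLF6 lost it without MUM2B wild type replicate 2 or MUM2B CANT1 replicate 3, and TPM1 without those or MUM2B wild type replicate 3.

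Cholesterol synthesis was the list with the most genes moving in opposite directions. Of 28 genes tested, 0 were higher and 0 lower in both lines (limma), and 11 passed in each line with opposite signs, where 2.5% of all genes did. INSIG1, a sterol-regulated anchor of SREBP, went from 9.78 and 10.43 to 11.12 and 11.33 in MUM2B and from 11.01 and 10.85 to 9.12 and 9.68 in OCM1. HMGCS1, an early enzyme of the pathway, rose by 1.30 in MUM2B and fell by 0.96 in OCM1. The list's median effect was 0.44 in MUM2B and -0.33 in OCM1, so that its mean of the lines, 0.00, describes neither. The count of 11 became 5 without MUM2B wild type replicate 2, MUM2B CANT1 replicate 3, OCM1 wild type replicate 3 or OCM1 CANT1 replicate 2, and 7 without OCM1 wild type replicate 2.

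The melanocyte lineage list had 1 shared gene among 27 tested, a share near the 3.26% of all genes higher in both lines. It was PMEL, the scaffold of pigment fibrils, higher by 0.38 in MUM2B, where it was dim (7.25 and 7.22 against 7.63 and 7.60), and by 0.46 in OCM1. BCL2A1, a survival gene controlled by MITF, rose by 0.87 in MUM2B and fell by 0.67 in OCM1, and TFAP2A, a neural crest factor, rose by at least 0.57 in MUM2B, where wild type lay under a signal of 100, and fell by 0.63 in OCM1. PMEL lost its call without either MUM2B wild type array, MUM2B CANT1 replicate 3 or OCM1 wild type replicate 3.

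**Figure D4:**
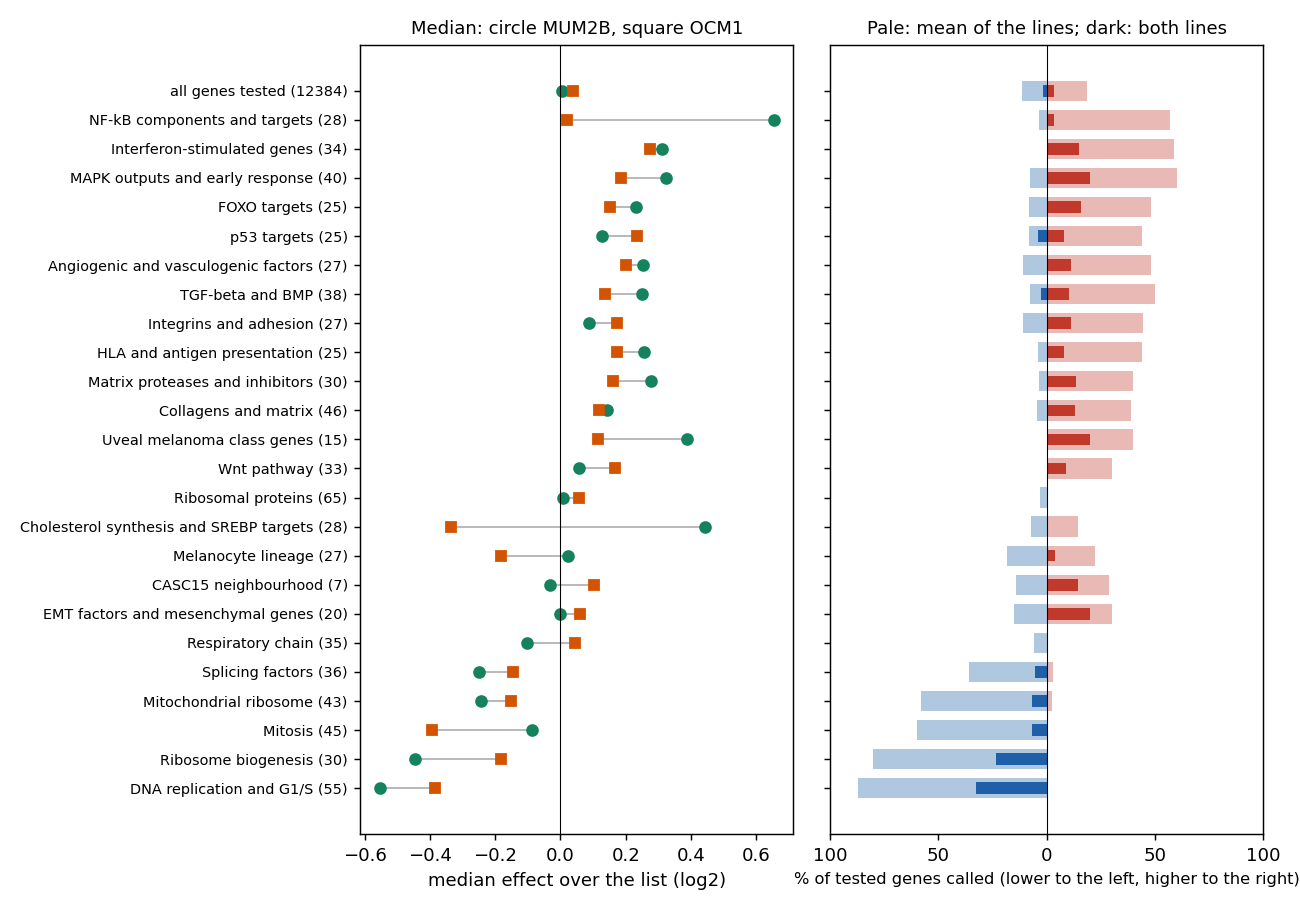
The left panel gives each list's median CANT1 minus wild type effect in MUM2B (circle) and OCM1 (square), in log2, with the number of genes tested in parentheses. The right panel gives the percentage of tested genes called higher (red) or lower (blue) in the mean of the lines (pale) and in both lines (dark). Replication and ribosome biogenesis had the largest percentages called lower, while the lowest OCM1 median was that of mitosis (-0.39), next to replication (-0.38).

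The replicate 1 pairs mostly ran the other way. Of the 404 genes higher in both lines, 62 (15.3%) were higher on the MUM2B replicate 1 pair, 164 (40.6%) on the OCM1 pair, 31 on both, and 209 were lower on both. Their median difference was -0.42 and -0.34. Of the 221 lower genes, 10 (4.52%) were lower on the MUM2B pair, 88 (39.8%) on the OCM1 pair, 6 on both, and 129 were higher on both, with medians of 0.66 and 0.18. Over all genes tested, 40.7% were higher on the MUM2B pair and 44.0% on the OCM1 pair. Across genes, the effect on replicates 2 and 3 and the difference on replicate 1 correlated at r = -0.62 in MUM2B and -0.21 in OCM1 (n = 12384 genes, which are not independent).

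Single genes show the size of this. On replicate 1, EGR1 was lower in CANT1 cells by 1.05 in MUM2B (8.96 against 7.92) and by 1.14 in OCM1 (11.16 against 10.02), and ID3 was higher by 1.02 and 1.43. The replication list had a median difference of 1.40 in MUM2B and -0.32 in OCM1 on replicate 1. These 4 arrays differed from the others in ways the groups do not describe: the 3′ to 5′ ratio of ACTB was 2.15 to 2.51, and the OCM1 wild type array correlated with its own line at a mean r of 0.823, where every other array had at least 0.935. That array was also dimmer in all 9 melanocyte markers than the other OCM1 wild type arrays. MLANA gave 2397 on it against 14803 and 14506, TYRP1 922 against 13590 and 14005, and the fibroblast marker LUM 62 against 1383 and 1284. The OCM1 CANT1 replicate 1 array gave 16242, 16138 and 1291. The part of these markers in the OCM1 replicate 1 differences was not tested. The culture label differs too, and its part in the reversed directions cannot be told apart from that of the set of arrays.

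With all 12 arrays in 1 limma fit and a term for the set, 4 genes were higher and 1 lower in the mean, and 0 were called in both lines in the same direction. At an unadjusted p under 0.05 in each line, 21 were higher and 4 lower in both lines in that fit. The 4 higher genes were APOC2, FSTL5, SFRP1 and NEFL and the lower one AMPH, chosen after their values were seen, and each was carried by OCM1, where SFRP1 differed by 3.59 against 0.13 in MUM2B. The shared response described here is therefore that of replicates 2 and 3, and 0 of its 625 genes kept the call in both lines when replicate 1 was added.

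**Figure D5:**
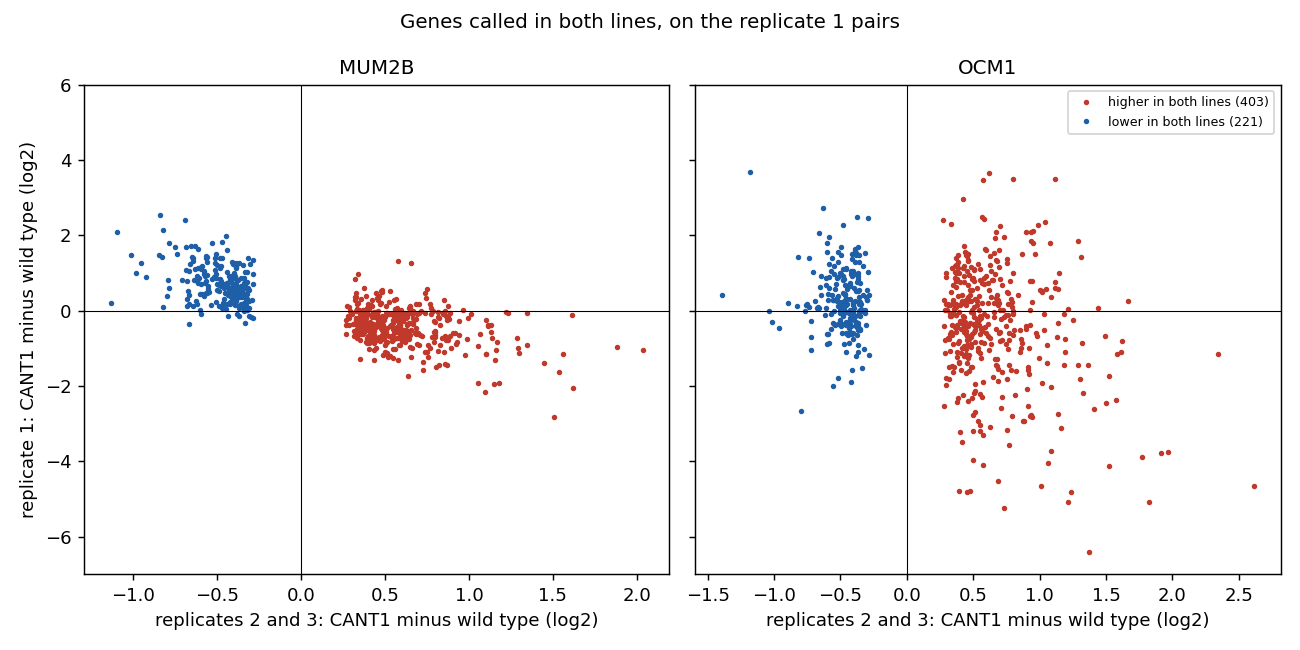
Each point is a gene higher (red, 403, without XIST, at -2.89 and -8.68 on replicate 1) or lower (blue, 221) in both lines, with its effect on replicates 2 and 3 on the x axis and its single CANT1 minus wild type difference on replicate 1 on the y axis (log2). In MUM2B most red points lie below 0 and most blue points above it, and in OCM1 they spread widely to both sides.

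A few shared genes ran the same way on both replicate 1 pairs, and these were chosen after their values were seen. The 6 of the 31 higher genes with the largest changes, by the smallest of the 4 differences, were TMEM163, a zinc transporter, FAM210B, FRMD3, TRIOBP, FAHD2A and NAV3. TMEM163, which lay near 7.04 or under it in MUM2B, measured 6.18 and 6.37 against 7.13 and 6.89 in MUM2B and 11.26 and 11.17 against 11.80 and 11.77 in OCM1, and 6.24 against 6.71 and 8.04 against 11.51 on replicate 1. NAV3, a microtubule-associated protein, measured 10.40 and 10.48 against 11.28 and 11.09 and 8.06 and 8.01 against 8.60 and 8.62, and 10.93 against 11.27 and 6.76 against 7.48 on replicate 1. Both kept their calls with any 1 of the 8 arrays left out. The other bright probe set of each differed less, by 0.02 in MUM2B and 0.27 in OCM1 for TMEM163 and by 0.20 and 0.10 for NAV3.

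Among the lower genes the 6 were SNHG1, SNHG12, PNN, SRRM1, CHORDC1 and ZNF92. SNHG1 and SNHG12 host small nucleolar RNAs, and PNN and SRRM1 encode proteins of RNA splicing. SNHG1 fell by 0.67 in MUM2B and 0.38 in OCM1, and its replicate 1 differences were -0.35 and -1.19. CHORDC1 differed by -0.09 and -0.30 on replicate 1. Differences this small on single arrays have no replicate check.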

How the data were processed

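The deposited log2 values, 1 per probe set and array, were made by the authors with MAS5, per the submitters' processing notes, which give neither a version nor the base of the logarithm, and they were read as log2 from their range. Each array was brought back to a linear scale, set so that its mean without the outer 2% was 500, and returned to log2 with an offset of 32. Such scaling hides a shift of all genes together. The number of arrays limits the precision. Of 49395 probe sets 102 were controls, 44988 named 1 gene by the platform annotation, 1832 several and 2473 none, and 44961 were matched to current symbols by gene identifier. Of 18132 genes, each by its brightest probe set, 12384 were tested, those that reached a signal of 100 on 2 or more of the 8 arrays.

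Tests used the functions lmFit and eBayes of limma 3.58.1 (R 4.3.3), with 1 term per group and 4 residual degrees of freedom, checked on simulated arrays, with Benjamini-Hochberg adjustment over all genes tested. The replicate numbers were not used as pairs, because correlations of their deviations between groups ran from -0.129 to 0.213. Named genes were the 12 higher and 12 lower with the largest weaker-line effect, up to 4 shared members of each list described and up to 2 that passed in opposite directions, and the genes around CASC15. The genes, the 39 lists and the rules were chosen with earlier results of these data known. Promoters came from RefSeq (GRCh38); the files' own build is not given in the sources used here.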

Additional observations from a re-analysis of the deposited data

Results flagged for a closer look

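Of 108 genes named besides XIST, 23 had a CANT1 effect that differed between the lines in the limma test of the difference (adjusted p under 0.05, OCM1 effect minus MUM2B effect in log2). Of these, 7 moved the same way in both lines but by unequal amounts. The difference was 0.92 for ACTA2, 0.79 for BMP6, 0.65 for RECK and 0.47 for ZEB1, which rose more in OCM1, and -0.45 for AMOT and -0.67 for ID4, which rose more in MUM2B. For SNORD17, which fell more in OCM1, it was -0.75. A group of ACTA2, BMP6, AMOT and ID4 lay under a signal of 100 on both arrays, so for these 4 the sizes compared are not measured in full. The same holds for XIST, which is not counted here and rose more in OCM1 (difference 1.56, limma adjusted p = 0.0023).

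The other 15 that passed in both lines did so in opposite directions. Higher in MUM2B and lower in OCM1 were INSIG1 (difference -2.65), HMGCS1 (-2.27), NFKBIZ (-2.01), LTBP1 (-1.60), TFAP2A (-1.59), BCL2A1 (-1.54), KLF2 (-1.41), KLF6 (-1.32), COL6A1 (-1.27), MMP14 (-1.27), BUB1 (-0.71) and VEGFB (-0.60). Lower in MUM2B and higher in OCM1 were POLR1B (1.05), TPM1 (0.83) and MRPS14 (0.61). Of the 15, 4 kept that call with any 1 array left out, and VEGFB and MRPS14 lost it without any 1 of the 8 arrays. MRS2, a neighbour of CASC15 that encodes a mitochondrial magnesium channel, fell by 0.64 in MUM2B and differed by 0.10 in OCM1, a difference of 0.74.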

How the results depend on the processing

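With all 12 arrays and a term for the set, 4 genes were higher and 1 lower in the mean, 0 were higher, 0 lower and 0 opposite in both lines, and 6 differed between the lines (limma; at an unadjusted p under 0.05, 686 in the mean and 21 higher, 4 lower and 8 opposite in both lines). In that fit the mean effect of 16 of 109 named genes changed sign. Of these, 10 had been called in the mean: IFITM1 (-0.0036), SATB1 (-0.26), OXCT1 (0.28), MNS1 (0.32), UTP20 (0.072), KLF6 (0.013), LGR4 (-0.049), TSC22D3 (-0.30), TP53I3 (0.072) and SOX4 (-0.024). The 6 not called in the mean were NFKBIZ (0.0048), COL6A1 (-0.066), VEGFB (0.028), HMGCS1 (-0.12), CDKAL1 (0.084) and DCDC2 (0.080). The cause was not tested. With the deposited values unscaled, 257 genes were higher in both lines.

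At least 2-fold changes numbered 63 higher and 3 lower in the mean, 10 higher, 0 lower and 2 opposite in both lines, and 463 between the lines. At an adjusted p under 0.01 the same counts were 1306, 669, 133, 34, 73 and 1205. Requiring every probe set of a gene to point the same way left 1307 higher in the mean and 1607 different between the lines. With 1 array left out, the ranges were 1599 to 2310 higher and 883 to 1458 lower in the mean, 166 to 423 higher, 59 to 256 lower and 122 to 342 opposite in both lines, and 1767 to 2830 different between the lines.

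With the replicate block, 2329 genes were higher and 1397 lower in the mean, 419 higher, 223 lower and 351 opposite in both lines, and 2829 differed between the lines. It kept 380 of the 404 higher and 213 of the 221 lower genes. Over named genes and all alternatives, the mean of the lines gave 2267 values counted as unchanged. The call in the mean was lost in 100 and gained in 3, and 10 values called in the mean reversed. The call in both lines was not part of these counts. Of the 88 named shared genes, 28 kept the call in both lines with any single array left out. Without MUM2B CANT1 replicate 3 it was lost by 37, and without MUM2B CANT1 replicate 2 by 12. A change of sign in a gene not called in the mean was counted as unchanged, so the 2267 include such changes.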

Other observations

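Shared genes by chromosome are given without a test, for chromosomes chosen after their values were seen. Over all genes tested 3.26% were higher and 1.78% lower in both lines. On chromosome 2, 49 of 824 genes tested were higher and 4 lower in both lines (5.95% and 0.485%). On chromosome 10, 23 of 472 were higher and 2 lower (4.87% and 0.424%). On chromosome 18 the order turned, with 3 of 177 higher and 7 lower, and on chromosome 7 it was 9 of 564 higher and 14 lower. It also turned on chromosomes 8, 15, 16 and 19. In OCM1 alone, 138 of the 564 chromosome 7 genes were lower and 38 higher, and 135 of 427 chromosome 4 genes were higher and 28 lower, whereas in MUM2B the same chromosomes had 57 lower and 79 higher and 55 higher and 54 lower. The median OCM1 effect was -0.09 on chromosome 7 and 0.18 on chromosome 4, against 0.04 over all genes tested. Over all genes, OCM1 had 14% higher and 9.65% lower, and MUM2B 14.4% and 10.4%.

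Of 10 acute phase, complement and protease inhibitor genes tested, 9 were higher and 0 lower in the mean of the lines by limma, but 0 passed in both lines (0 also at an unadjusted p under 0.05 in each line). Of 22 heat shock genes, 10 were lower and 3 higher in the mean, and 11 were lower in OCM1 against 1 in MUM2B. Of 14 histone genes, 7 were higher and 3 lower in the mean. In OCM1 8 of them were higher and 2 lower, and in MUM2B 1 was higher and 3 lower. Over all genes 18.4% were higher and 11.2% lower in the mean. Gene by gene, the effect differed between the lines in 7 acute phase, 8 heat shock and 8 histone genes, where it did in 22.1% of all genes. The lists as sets were not tested.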
